A study of Mus musculus with 2 samples.

Results

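MicroRNAs (miRNAs) are numbered in the order in which they enter the miRBase catalogue, so a high number marks a miRNA that was annotated late. The miRNAs described here are the mature mouse miRNAs with a number of 1900 or more that had at least 10 reads in the testis. The rule left out the rows of miR-7218, miR-7221, miR-7223, miR-7230, miR-7233 and miR-7686. Of the 1905 mature miRNAs listed, 1009 carry such a number, and 44 met the rule. They stand among 484 mature miRNAs that reached 10 reads over the pair of libraries, the set in which every test of a ratio was made. The members were selected on the sum of their reads, so their levels are a description and were not tested. The read minimum did not use the ratio of the libraries at a given sum. The omitted numbers were set with earlier results of these data known, and some of them differed between the libraries, as given below. Test results for the members therefore do not stand for all late-annotated miRNAs.

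The testes came from mice at postnatal day 60, of strain C57BL/6 by the labels and C57BL/6J by the methods of the study. One group had taken up a mixture of EDCs (endocrine-disrupting compounds) in the drinking water, from post-coital day 0.5 through the mother and then directly up to day 60. The mixture held 3 phthalates at 0.3 mg per kg of body weight and day each, and 2 alkylphenols at 0.05 mg per kg and day each. Control mice drank water with the vehicles alone, an intake of about 0.25 g DMSO and 0.06 g ethanol per kg and day, which the exposed mice received as well. Each group is 1 sncRNA-Seq library made from a pool of testes (n = 3 by the study's methods, where n is a pregnant mouse with her male offspring). With 1 library per group there was no replicate check, and each test compared those libraries and not the conditions. Whole decapsulated testes were used, so fewer cells of a type and less RNA per cell cannot be told apart.

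Mature miRNAs are short RNAs cut from a hairpin precursor by the nucleases Drosha and Dicer. A hairpin can give a 5p miRNA from its first arm and a 3p miRNA from its second. One of them is loaded into an Argonaute protein and guides it to mRNAs mainly through the seed, bases 2 to 8. Some late entries take other routes. Mirtrons are short introns that the spliceosome releases and that fold into a hairpin without Drosha, and some small nucleolar RNAs (snoRNAs), which guide chemical marks on ribosomal RNA, are cut into miRNA-sized pieces. Male germ cells are known for miRNAs that are made in few other tissues.

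Most late-annotated miRNAs were not seen. No read was found in either library for 764 of the 1009 (75.7%), against 273 of 896 (30.5%) of the miRNAs with lower numbers or names such as let-7. A count of 0 allows a share of up to 0.000545% of the reads from control mice and 0.000598% of those from exposed mice, for counting error only. A further 190 late-annotated miRNAs had 1 to 9 reads. Of the 55 with 10 or more, 11 carry an omitted number. At the edge of the rule, miR-3102-3p and miR-5129-3p entered with 8 reads in control and 2 in exposed mice each. Outside it, 4 had 9 reads, among them miR-6911-3p with 9 and 0 and miR-7689-3p with 3 and 6.

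**Figure D1:**
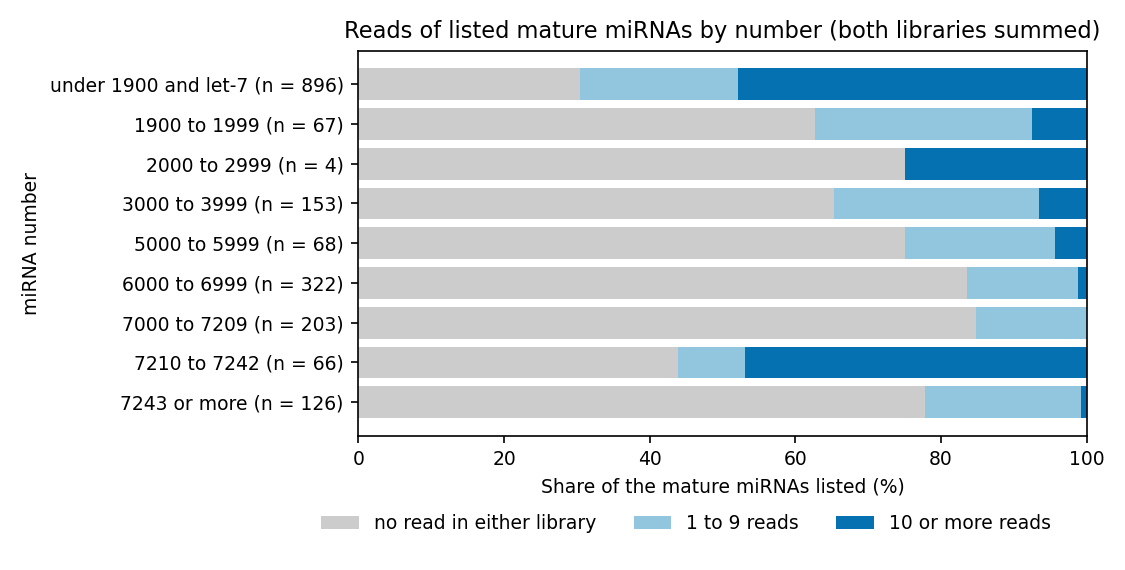
Share of listed mature miRNAs (x axis, %) with no read, with 1 to 9 reads and with 10 or more reads in both libraries summed, by miRNA number (y axis, n is the number listed). Of the 66 listed from miR-7210 to miR-7242, 31 had 10 or more reads, against 0 of the 203 from 7000 up to miR-7209.

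The members were not spread evenly over the numbers. The stretch from miR-7210 to miR-7242, singled out here after its values were seen, held 21 of the 44 members and 23144 of their 27347 reads (84.6%). It spans 33 hairpin numbers, of which 11 gave a member. Numbers from 3000 gave 10 members of 153 listed, and those from 1900 gave 5 of 67. Numbers from 6000 gave 4 of 322, those from 5000 gave 3 of 68 and those from 2000 gave 1 of 4. Within the stretch, 29 of 66 mature miRNAs had no read, and the neighbouring numbers from 7000 up to miR-7209 had none in 172 of 203.

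The sequences of the members with the most reads are given because none of their seeds occurs in another member with a sequence. They are RefSeq's entries for GRCm38 (the assembly also named mm10), which matched 39 of the 44 members by name. miR-7214-5p, miR-7241-3p, miR-5099, miR-6539 and miR-3970 are named only. Each is written 5′ to 3′ with the seed in capitals.
miR-7217-5p: aACUUGUAucuugugagacagaagg
miR-7222-5p: gGCACUUGccaggcucugagcuggacu
miR-7210-3p: uUAUAUGUaaguaacaauguggcu
miR-7242-5p: aUUGGGCUugggaggugcuugu
miR-7242-3p: uGGCAGCUcggcucuacucugg
miR-7217-3p: uGAGAACCcacaagcaagaaga
miR-7232-5p: uACAUGGAugauuguuuuuccaag
The median length was 22 bases both for the members and for the other tested miRNAs, but more of the members were long. Of 39 with a sequence, 11 (28.2%) had 24 bases or more, namely 8 of the 19 from miR-7210 to miR-7242 (42.1%) and 3 of the 20 other members (15%). Of the 365 other tested miRNAs with a sequence, 18 (4.93%) were as long. The other tested miRNAs include those of the omitted numbers. miR-7222-5p, with 27 bases, was the longest member, and miR-6236, with 19, the shortest.

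The members that differed most between the libraries, or that lay at the extremes of the ratio, had these sequences.
miR-1981-5p: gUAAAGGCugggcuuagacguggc
miR-3085-3p: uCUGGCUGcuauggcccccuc
miR-7234-3p: aAACGUCUuucuaggguagaagg
miR-7216-5p: uGGAGAGCuggcagaggacccaga
miR-7216-3p: uGGAAUUUggucuuuuccggc
miR-5121: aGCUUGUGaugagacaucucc

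miR-7217-5p was the member with the most reads, with 3055 in control and 2553 in exposed mice. It took 0.555% (exact Clopper-Pearson 95% interval, 0.536 to 0.575) and 0.509% (0.490 to 0.529) of all mature miRNA reads, rank 41 of the 1905 listed. Its hairpin lies at chr17:27355738-27355799 on the plus strand of GRCm38, in an exon of the long non-coding RNA Gm49794 in the GENCODE M21 annotation. A read covers a whole mature miRNA, so reads of different miRNAs were compared without division by length.

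The next members by level were miR-7214-5p with 1692 and 1403 reads in control and exposed mice, miR-7241-3p with 1615 and 1387, and miR-5099 with 1242 and 1126. These 4 members held 51.5% of the reads of all 44. miR-7222-5p had 1033 and 885 reads, and miR-7210-3p 716 and 631. Both arms of 1 hairpin followed, miR-7242-5p with 691 and 633 reads and miR-7242-3p with 725 and 584. miR-7217-3p, from the other arm of the leading hairpin, had 514 and 394, and miR-7232-5p 351 and 361. These 10 held 79.0% of the reads of the members, and miR-5099 was the only one of them from outside the stretch miR-7210 to miR-7242.

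Below them the levels fell over a wide range. The reads of the 44 members ran from 10 to 5608 with a median of 145.5, and the 440 other tested miRNAs had a median of 118. Members numbered from miR-7210 to miR-7242 had a median of 531 reads, and the other 23 members a median of 20. In all, 8 members had 1000 reads or more and 17 had fewer than 50. Together the members took 14853 reads in control mice, 2.70% (2.66 to 2.74) of the library, and 12494 in exposed mice, 2.49% (2.45 to 2.53).

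**Figure D2:**
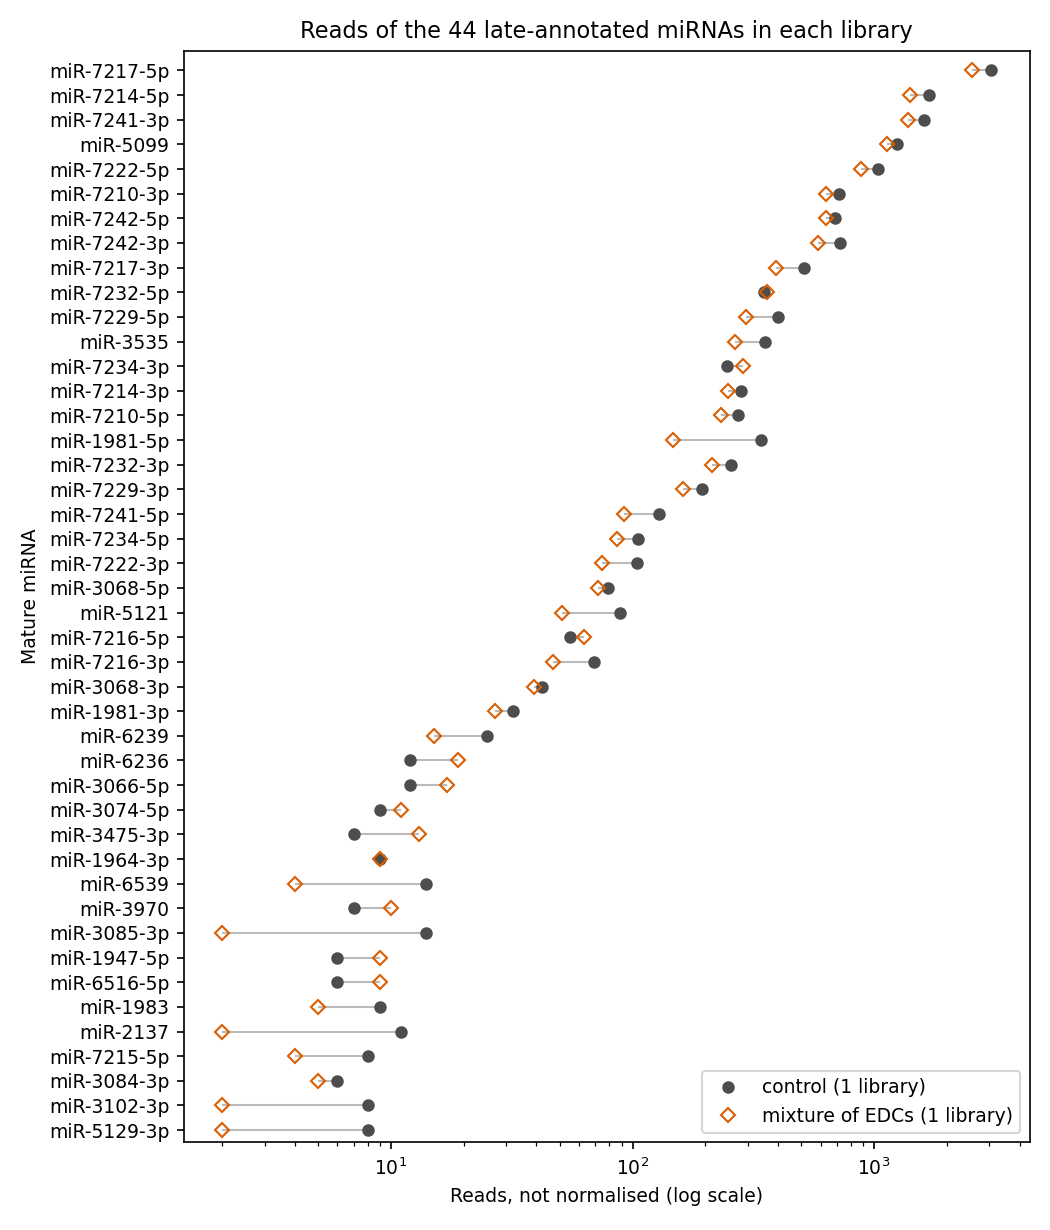
Reads of each of the 44 members (y axis, ordered by the sum of both libraries) in the control library (filled circles) and the library of exposed mice (open diamonds), 1 library each, on a log x axis, not normalised. The points of most members down to miR-3068-3p (42 and 39 reads) lie close together, those of miR-1981-5p (341 and 147) and miR-5121 (89 and 51) stand further apart, and members with under 20 reads spread widely.

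The libraries were then compared member by member. Median-of-ratios size factors (1.07 for control, 0.937 for exposed mice) scaled the counts. The reads of each miRNA were then put to an exact binomial test (2-sided), with Benjamini-Hochberg adjustment over the 484 miRNAs. A call, higher or lower in exposed mice, needed an adjusted p below 0.05 and a log2 ratio of 0.5 or more in size. Intervals cover counting error only, and reads that are PCR copies of 1 molecule make them too narrow. Of the 44 members, 0 were called higher and 2 were called lower, miR-1981-5p and miR-3085-3p. The paper lists both as down-regulated, from the same libraries. The 0 does not cover the omitted numbers. For miR-7686-5p the counts were 4 (control library) and 18 (library of exposed mice), a log2 ratio of 2.36. The paper lists it as up-regulated. For miR-7218-3p the counts were 151 and 83, a log2 ratio of −0.68, called lower. Both belong to the 440 other tested miRNAs, of which 3 were called higher and 9 lower. Over all tested miRNAs 2.89% were called, 0.62% higher and 2.27% lower, so that the count among the members was near this background.

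The control library held 341 reads of miR-1981-5p, and the library of exposed mice 147. Its log2 ratio was −1.03 (−1.32 to −0.74, exact binomial test, adjusted p = 1.35e-12), about 320 against 157 normalised reads. It was the only called member with 50 reads or more. miR-1981-3p, from the other arm of the same hairpin, had 32 and 27 reads, a log2 ratio of −0.06 (adjusted p = 0.982), and its interval of −0.85 to 0.73 overlaps that of the 5p arm.

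For miR-3085-3p the control library held 14 reads and that of exposed mice 2, a log2 ratio of −2.62 with an interval of −5.80 to −0.50 (exact binomial test, adjusted p = 0.0326). The other arm, miR-3085-5p, had 1 and 3 reads, which leans the other way (Fisher's exact test on the arms, p = 0.0320, adjusted p = 0.401). The call of miR-3085-3p rests on 16 reads. It was lost with TMM scaling and with no minimum of reads, and edgeR's exact test, given a dispersion from treating the libraries as 1 group, called 0 members (2 at an unadjusted p under 0.05). Other members with few reads had smaller negative ratios that were not called, such as miR-2137 with 11 and 2 reads (−2.27, adjusted p = 0.113 in the exact test) and miR-6539 with 14 and 4 (−1.62, adjusted p = 0.194). Others leaned up and were not called, such as miR-3475-3p with 7 and 13 reads (1.08) and miR-6236 with 12 and 19 (0.85). Of the 23 members outside the stretch miR-7210 to miR-7242, 11 had a log2 ratio above 0 and 12 below.

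Without the size minimum 1 further member passed the exact binomial test, in the other direction. For miR-7234-3p the control library held 245 reads and that of exposed mice 286, a log2 ratio of 0.41 (0.16 to 0.66, adjusted p = 0.00805). Its partner arm miR-7234-5p had 105 and 86, a log2 ratio of −0.10. At any size 1 member thus passed upward and 2 downward, against 8.26% and 9.3% of the tested miRNAs.

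The remaining extremes among members with 50 reads or more did not pass. miR-5121 had 89 and 51 reads in control and exposed mice (−0.62, interval −1.14 to −0.10, exact binomial test, adjusted p = 0.0733). It passed with scaling by total reads. miR-7216-5p had 55 and 63 (0.38) and miR-7216-3p 69 and 47 (−0.37), so the arms of this hairpin leaned in opposite directions. miR-7232-5p had a log2 ratio of 0.23 (adjusted p = 0.156).

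Under the median-of-ratios scaling the abundant members had log2 ratios near 0. The log2 ratio was −0.07 (−0.15 to 0.00) for miR-7217-5p, −0.08 for miR-7214-5p, −0.03 for miR-7241-3p, 0.05 for miR-5099 and −0.04 for miR-7222-5p. The log2 ratio of miR-7210-3p was 0.00 and that of miR-7242-5p 0.06, and that of miR-7242-3p was −0.13. In these 8, the members with 1000 reads or more, no bound of an interval was further from 0 than 0.285. miR-7217-3p had a log2 ratio of −0.20. Of the 27 members with 50 reads or more, 25 (92.6%) had a log2 ratio within 0.5 of 0. Of all 44 there were 28 (63.6%), and of the 484 tested 379 (78.3%). Scaling by total reads, which compares shares of the libraries, shifted every log2 ratio by −0.053. That of miR-7217-5p was then −0.125, and the intervals of its shares, 0.555% in control and 0.509% in exposed mice, did not overlap.

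Over the members the median log2 ratio was −0.07, with 17 above 0 and 27 below, and it was −0.04 over all tested miRNAs. Members numbered from miR-7210 to miR-7242 had a median of −0.07, and 20 of these 21 lay within 0.5 of 0 with 0 called. The other 23 members, most of them with few reads, had a median of −0.06 and both calls. The reads of all members summed gave a log2 ratio of −0.06 (−0.10 to −0.03). The reads of all 484 tested miRNAs summed gave 0.053 (0.047 to 0.058), so sums did not centre on 0 under this scaling.

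**Figure D3:**
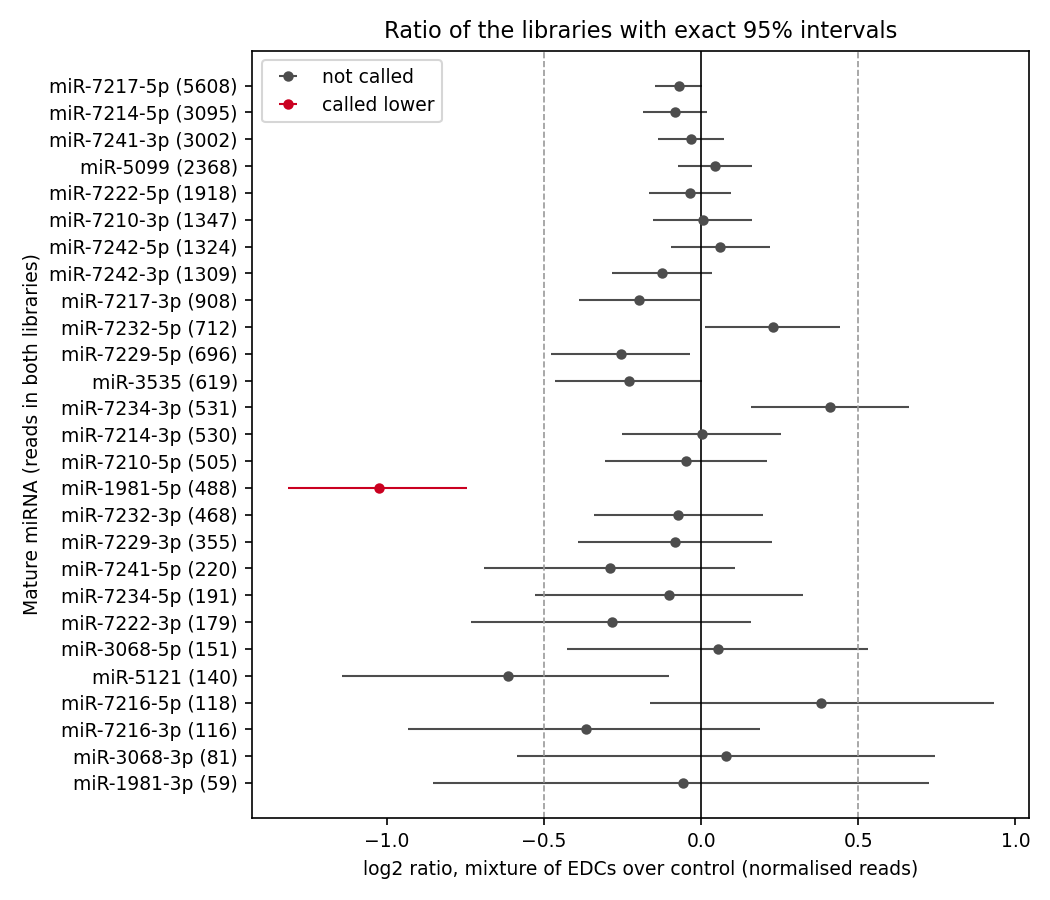
Log2 ratio of exposed to control mice (x axis, normalised reads) with exact 95% intervals for the 27 members with 50 reads or more (y axis, reads of both libraries in parentheses), with 1 library per group. Dashed lines mark the size minimum of 0.5, and miR-1981-5p (−1.03) is the only called member among them.

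Arm use was compared because it needs no scaling between the libraries. Of 22 hairpins with a member, both arms listed and at least 10 reads, 0 were called by Fisher's exact test on the reads of the arms (adjusted p under 0.05 and a log2 odds ratio of at least 0.5 in size), with 3 at an unadjusted p under 0.05. Over all 276 such hairpins 2.54% were called, with 26 at an unadjusted p under 0.05. The omitted miR-7230, miR-7221, miR-7233 and miR-7218 had p from 0.00305 to 0.00536 (adjusted p from 0.0648 to 0.0924, Fisher's exact test) and were not called. The result for the members does not cover these omitted hairpins. The smallest p among the members' hairpins was that of miR-1981, 0.0179 (adjusted p = 0.247, Fisher's exact test). Its 5p arm gave 91.4% of the hairpin's reads in control mice (88.1 to 94.1) and 84.5% in exposed mice (78.2 to 89.5), a log2 odds ratio of −0.97.

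Of the 5 hairpins with the most reads, miR-7217, miR-7214, miR-7241 and miR-7222 gave most of their reads from 1 arm in both libraries, and miR-7242 did not. For miR-7217 the 5p arm gave 85.6% of the reads in control (84.4 to 86.7) and 86.6% in exposed mice (85.3 to 87.8). For miR-7214 the 5p arm gave 85.7% and 85.0%, and for miR-7222 it gave 90.9% and 92.2%. miR-7241 used the other arm, with 7.34% and 6.22% from 5p.

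Other hairpins gave both arms in quantity. For miR-7242 the 5p share was 48.8% in control (46.2 to 51.4) and 52.0% in exposed mice (49.2 to 54.9), so that neither library showed a preferred arm. miR-7210 gave 27.6% and 26.9% from 5p, miR-7232 57.9% and 62.9%, and miR-7229 67.4% and 64.7%. For miR-7234 the 5p share was 30.0% in control and 23.1% in exposed mice (Fisher's exact test, p = 0.0426, adjusted p = 0.486). In 10 of the 12 hairpins with both arms among the members (83.3%) the minor arm gave more than 10% of the reads, with a median of 26.9%. Over all 276 hairpins the minor arm did so in 105 (38.0%), with a median of 4.84%. Both arms of these 12 had to reach 10 reads to be members. Among hairpins with 100 reads or more the counts were 10 of 12 with a member and 58 of 171 (33.9%) in all. The trait was not particular to the members. The omitted miR-7218, miR-7221, miR-7223, miR-7230 and miR-7233 each had a minor arm above 10% in both libraries. So did some older hairpins, such as miR-465a and miR-878, while others, such as miR-34c and miR-881, did not.

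**Figure D4:**
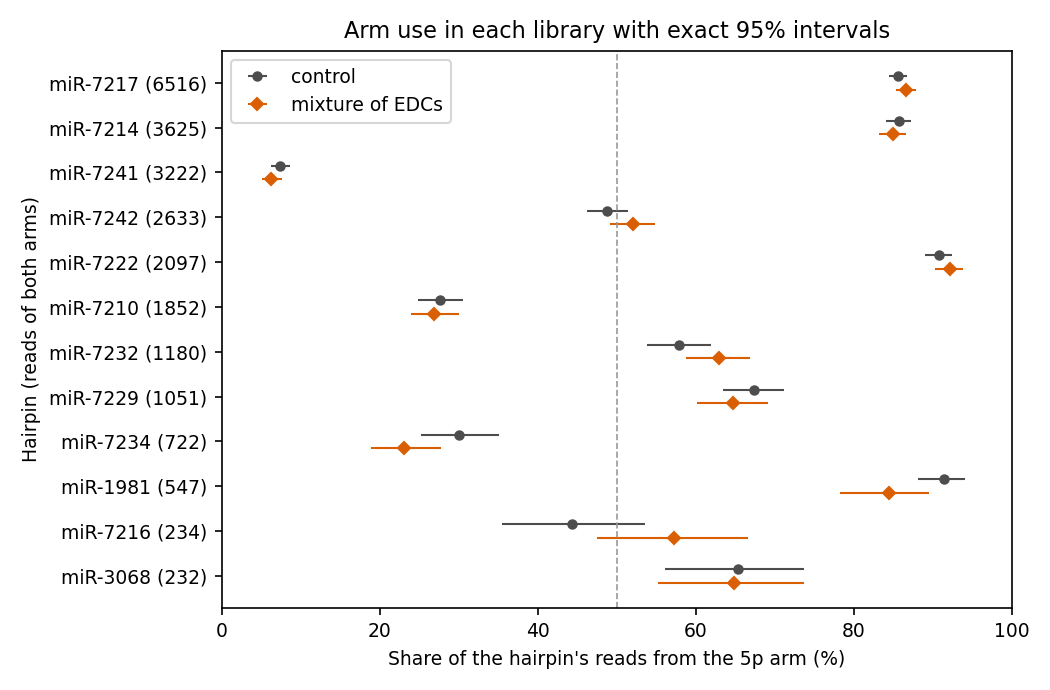
Share of reads from the 5p arm (x axis, %) with exact 95% intervals for the 12 hairpins with both arms among the members (y axis, reads of both arms in parentheses), with circles for control and diamonds for exposed mice. The miR-7217, miR-7214 and miR-7222 hairpins lie above 80% in both libraries, miR-7241 lies under 10%, and miR-7242 lies at 48.8% and 52.0%.

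The hairpins of some of these members are short. They are given here in full, 5′ to 3′ as RNA, to show what lies outside the arms. The mature arms are in capitals and the other bases in lower case.
Mir7217: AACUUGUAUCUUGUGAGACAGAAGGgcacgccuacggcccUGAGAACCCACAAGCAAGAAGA
Mir7242: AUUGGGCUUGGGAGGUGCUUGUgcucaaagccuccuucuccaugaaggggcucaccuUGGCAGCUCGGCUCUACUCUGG
Mir7210: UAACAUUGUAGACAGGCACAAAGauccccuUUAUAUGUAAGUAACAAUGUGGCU
Mir7234: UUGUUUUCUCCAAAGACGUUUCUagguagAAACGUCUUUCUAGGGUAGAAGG
In Mir7210 47 of the 54 bases belong to a mature arm, and in Mir7234 46 of 52. More lies outside the arms in Mir7217, with 47 of 62 in an arm, and in Mir7242, with 44 of 79. The 11 member hairpins numbered from miR-7210 to miR-7242 had a median annotated length of 62 bases, from 51 to 79, against 83 for the other tested hairpins. Their predicted folding energy per base was weaker, with a median of −0.32 kcal per mol over 11 hairpins against −0.43 over 261 other tested ones (RNAfold). A median of 60.8% of their bases were paired, against 72.9%. Hairpins of the omitted numbers of this stretch, such as Mir7218 and Mir7221, were counted among the other tested ones. Mir7210 had the weakest fold of the members at −0.17 kcal per mol and base. The other 19 member hairpins with a sequence had medians in between, −0.37 and 69.2%.

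The 44 members come from 34 annotated hairpins. Of these, 12 (35.3%) lie between genes, 12 in an intron of a gene on the same strand, 7 in an exon of at least 1 transcript on the same strand and 3 opposite a gene. The other tested miRNAs had 89 of 301 hairpins (29.6%) between genes. Of the 11 member hairpins in the stretch miR-7210 to miR-7242, 6 lay between genes and none lay in a protein-coding gene on the same strand.

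Members in clusters all came from the stretch miR-7210 to miR-7242. Another hairpin lay within 10 kb on the same strand for 5 of the 34 (14.7%), against 152 of 301 (50.5%) for the other tested hairpins. These were 5 of the 11 hairpins of the stretch (45.5%), near the share of the other tested ones, and 0 of the 23 other member hairpins. Mir7241 at chr9:67727717-67727780 and Mir7242 at chr9:67729499-67729577, both on the minus strand, are 1718 bases apart and were the only pair of members. Their 5p shares of 7.34% and 48.8% in control mice show that the neighbours differed in arm use. Mir7217 lies 2297 bases from Mir7218, Mir7222 lies 2324 bases from Mir7221, and Mir7232 lies 935 bases from Mir468. miR-468-3p, from that older hairpin, had 837 and 683 reads in control and exposed mice, more than either arm of Mir7232.

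On chromosome 17, 3 hairpins of members lie within 38.8 kb, on both strands. Mir7214 is at chr17:27317035-27317095 on the minus strand in an intron of the long non-coding RNA Gm49793. Mir7216 follows after 11.289 kb at chr17:27328385-27328460 on the plus strand, in an intron of the non-coding transcript Gm10505. Mir7217 follows after another 27.277 kb. Their levels ranged from 6516 reads of both arms for miR-7217 over 3625 for miR-7214 to 234 for miR-7216.

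The called member miR-1981-5p comes from an intron. Mir1981 at chr1:184822407-184822488 on the minus strand fills an intron of Marc2, a mitochondrial enzyme gene, with 0 bases left at either end. The hairpin is shown with its arms in capitals.
Mir1981: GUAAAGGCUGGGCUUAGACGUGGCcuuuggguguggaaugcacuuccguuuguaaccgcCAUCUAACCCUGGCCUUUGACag
It starts with GU and ends with AG, the ends of a spliced intron, and the 5p arm starts at the first base. Mir3102 in Arhgef17 is the other member hairpin of this kind (2 of 34, 5.88%), and 1 of the 301 others (0.332%) was, counting hairpins that end within 4 bases of both ends of an intron. miR-3102-3p had 8 and 2 reads (log2 ratio −1.81, interval −5.09 to 0.51, not called), so that no difference was detectable at its depth.

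In 6 of the 34 hairpins (17.6%) the annotation places a snoRNA, or a scaRNA of the Cajal body, on the same strand, against 6 of 301 (1.99%) for the others. For miR-3535 and for Mir3068 the snoRNA carries the same name as the hairpin entry, and miR-3084-3p counts with both of its hairpins. The 6 hairpins gave 6 members, named after their values were seen, with 1017 reads together. miR-3535 lies in the snoRNA Gm24148 inside Ncl, the gene of nucleolin, and had 354 and 265 reads in control and exposed mice (−0.23, not called). miR-5121 lies in Snord33 inside Rpl13a, a ribosomal protein gene. miR-6516-5p lies in the scaRNA Gm26083 inside the host transcript Snhg20 (6 and 9 reads). miR-3084-3p lies in Gm23658 inside Cbwd1 and in Snora19 inside Eif3a, a gene of a translation initiation factor (6 and 5 reads), so its reads cannot be assigned to 1 of them. Mir3068 itself, inside Alkbh1, is annotated as a snoRNA, and its arms had 79 and 72 reads (5p) and 42 and 39 reads (3p). Of these 6 members 3 had a log2 ratio above 0 and 3 below, and 0 were called.

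Box C/D snoRNAs carry a conserved box C with the letters UGAUGA. This motif was searched on the given strand of each mature sequence, and 2 of the 39 members with a sequence hold it, miR-3535 and miR-5121, at bases 7 to 12. Of all 1679 mature mouse miRNAs in the RefSeq entries used, 12 (0.715%) hold it. The motif stands in capitals.
miR-3535: uggauaUGAUGAcugauuaccugaga
miR-5121: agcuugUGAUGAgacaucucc

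Members rarely shared a seed with any miRNA. No 2 of the 39 members with a sequence had the same seed. Of these 39, 6 (15.4%) shared their seed with another annotated mouse miRNA, against 162 of 365 (44.4%) of the other tested miRNAs. In 2 of the 6 the partner was tested too, and these pairs are shown with the seed in capitals.
miR-7229-5p: uAGUAGACaucccuggauagc
miR-411-5p: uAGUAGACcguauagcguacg
miR-5129-3p: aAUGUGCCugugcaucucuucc
miR-455-5p: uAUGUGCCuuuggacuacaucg
miR-7229-5p, with 401 and 295 reads, was more abundant than miR-411-5p, with 179 and 114. miR-5129-3p, with 8 and 2, was below miR-455-5p, with 43 and 49. Aligned from the first base without gaps, 11 of 21 bases are the same in the first pair and 14 of 22 in the second. None of the 39 members with a sequence had one identical to that of an older miRNA. None of these 39 matched the hairpin of another miRNA with up to 3 mismatches, the number allowed in the alignment. The members without a sequence, among them the abundant miR-7214-5p, miR-7241-3p and miR-5099, could not be compared. miR-3074-5p (9 and 11 reads) and miR-3084-3p have 2 hairpins each.

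The hairpins of miR-3074-5p lie opposite older hairpins. Mir3074-1 is opposite Mir24-1 in an intron of Fancc, a DNA repair gene, on chromosome 13, and Mir3074-2 opposite Mir24-2 on chromosome 8. miR-24-3p, which is cut from both of those, had 1904 and 1530 reads in control and exposed mice, far above its opposite partner. Whether the counting used the strand of a read is not given in the sources used here, so reads of such opposite hairpins may not be told apart.

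The libraries held 550261 reads in control and 501539 in exposed mice on mature miRNAs. Among germ cell markers 7 of 7 were found (miR-34c-5p and miR-881-3p among them), with 20.8% and 20.6% of the reads in control and exposed mice, so the markers of the labelled tissue were present. Their sum was close in both libraries, but single markers were not: miR-34b-5p took 2.04% and 2.97% (called higher, log2 ratio 0.60) and miR-878-3p 0.421% and 0.263% (called lower, −0.63). Markers of smooth muscle took 6.39% and 6.73%, of endothelium 0.682% and 0.588%, of epithelium 0.301% and 0.292% and of Sertoli and other somatic gonad cells 0.437% and 0.479%. Those of striated muscle took 0.148% and 0.179% with miR-206-3p at 0 and miR-133a-3p called lower (103 and 56 reads, log2 ratio −0.69), of brain 0.0903% and 0.0760%, of white blood cells 0.0373% and 0.0353% and of red blood cells 0.0238% and 0.0283%. The liver marker miR-122-5p had 0 reads and 1 read. Whether these shares play a part in the ratios of the members was not tested.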

How the data were processed

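The deposited values are read counts of mature miRNAs, not normalised, in 1 table per library. The authors checked reads with FastQC, trimmed adapters with cutadapt, dropped reads under 12 nucleotides, aligned with bowtie to mm10 (up to 3 mismatches, all best alignments kept) and counted with HTSeq on miRBase v21. Tool versions were not given in the sources used here. Reads matching several hairpins may be counted at each. Lines of ambiguous reads (0.528% and 0.515%) were left out. RNA quality was RIN above 9.

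Size factors, exact binomial and Fisher tests, Benjamini-Hochberg adjustment and Clopper-Pearson intervals were computed with scipy 1.17.1 and numpy 2.4.6 in Python 3.11.15, TMM and edgeR's exact test in R 4.3.3 (edgeR 4.0.16), and folds in ViennaRNA 2.7.2. In the odds ratios 0.5 was added to each cell. The methods were tested on simulated counts. Positions come from RefSeq, or GENCODE M21 where RefSeq had none, both of GRCm38.

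The members, lists and alternatives were chosen with earlier results of these data known. Named by rule were the 10 members with the most reads, every called member, the 3 highest and lowest ratios at 50 reads or more, the 5 leading hairpins with both arms listed, hairpins near or opposite others, and the edge of the read minimum. Members named for sharing a seed with an older miRNA or for lying in an intron or snoRNA, and uncalled members with few reads, were chosen after their values were seen. The labels give no further replicate. Precursors, isomiRs and RT-qPCR were not analysed here.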

Additional observations from a re-analysis of the deposited data

How the results depend on the processing

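The count of called members was 2. It stayed 2 with scaling without the 10 most abundant miRNAs and with a size minimum of 1.0. It was 3 with scaling by total reads, which added miR-5121 (lower), and 3 with no size minimum, which added miR-7234-3p (higher). It was 1 with TMM, with no minimum of reads and with a minimum of 50 reads, each time miR-1981-5p, and 0 by edgeR's exact test when the dispersion came from treating the libraries as 1 group. miR-1981-5p was called under every alternative but that one, which counts the difference between the libraries as spread. With scaling by total reads the median log2 ratio of the members was −0.13, and the log2 ratio turned from just above 0 to −0.0077 for miR-5099, −0.0486 for miR-7210-3p and −0.0516 for miR-7214-3p, and to −0.0001 for miR-3068-5p. Without the 10 most abundant miRNAs it turned to −0.0245 for miR-7210-3p and −0.0276 for miR-7214-3p. No other member changed sign, and 168 of 176 ratios of single members kept sign and call. No hairpin of a member was called by arm use under any alternative run. With a minimum of 5 reads 70 miRNAs would be members, and with 50 reads 27. No paired analysis was possible because each group has 1 library, and leaving out a library leaves no comparison. Depth limits the 17 members with under 50 reads most: the interval of miR-3085-3p spans −5.80 to −0.50.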
